A study of Mus musculus with 4 samples.

Results

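The core spliceosome genes examined here are 37 genes that code for proteins of the U1, U2, U4/U6 and U5 small nuclear ribonucleoproteins (snRNPs), for the SF3a and SF3b complexes, for the factors that first recognise the 3′ end of an intron, and for Prp19. They were taken by name from a fixed list and looked up by gene symbol among the 56748 gene IDs of the count files, where each of the 37 has 1 ID. RNA of C2C12 cells, an established mouse myoblast line, was read as direct RNA on nanopore flow cells, so that a read comes from a single RNA molecule with no amplification. The 2 scrambled libraries came from cells that stably carried a scrambled shRNA. The 2 *Hnrnpl* knockdown libraries came from cells transfected with a cocktail of 3 shRNAs against *Hnrnpl*, the gene of the splicing regulator hnRNP L. In both groups eGFP-positive clones had been isolated and selected with puromycin, and the replicates of a group were passages of the same selected line, so p-values measure the spread between passages and not between independently made lines. The replicate number is also the batch number of the labels, with 1 scrambled and 1 knockdown library in each of 2 batches.

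The spliceosome removes introns in steps. U1 snRNP pairs with the 5′ splice site, SF1 and U2AF mark the branch point and the 3′ splice site, and U2 snRNP with SF3a and SF3b then takes the branch point. The U4/U6.U5 tri-snRNP joins next, and helicases and the Prp19 complex turn the assembly into its active form. Each of U1, U2, U4 and U5 carries a ring of Sm proteins around its RNA, and U6 carries a ring of related LSm proteins. These genes are active in nearly every cell type, and the question here is whether the RNA of the general splicing machinery moved when a splicing regulator was lowered.

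Some members have a near-identical copy elsewhere in the genome that also holds reads. The windows below come from the GRCm39 genome and show how alike *Lsm7*, *U2af1* and *Snrpc* are to such copies. Each is 25 bases of coding sequence of the member, followed by the same window of its processed pseudogene, 5′ to 3′ on the strand of the gene, and a capital marks a base that differs, counted from 1 at the 5′ end.
Lsm7, chr10:80688869-80688893, reverse strand: ctggggcttgtcgtatgtcgtggca
Gm10146, chr10:78229364-78229388, forward strand: ctggggcttgtcgtatgtcgtggca
U2af1, chr17:31873954-31873978, reverse strand: tgcacaataaaccAacctttagcca
Gm10232, chr17:3094878-3094902, reverse strand: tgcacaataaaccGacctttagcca
Snrpc, chr17:28059446-28059470, forward strand: gtgactactgtgaTacgtatcttac
Gm2991, chr15:65800742-65800766, reverse strand: gtgactactgtgaCacgtatcttac
The *Lsm7* window has no difference, the *U2af1* window differs by A14G and the *Snrpc* window by T14C.

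*Lsm7* codes for a subunit of the LSm ring of U6. The deposited files list 8 and 5 reads on *Lsm7* in scrambled replicates 1 and 2, and 8 and 9 in knockdown replicates 1 and 2. Its processed pseudogene *Gm10146*, which matches it in all 453 aligned bases, holds 218 and 239 reads in the scrambled libraries against 191 and 223 after knockdown. The copy therefore holds 96.7% of the reads on both together. *Lsm7* on its own did not pass the filter on low counts, and the sum of both had a log2 fold change of 0.08 ± 0.17 (SE, edgeR adjusted p = 0.818). Exons of *Sppl2b*, on the opposite strand, cover 36.8% of the last 800 bases of *Lsm7*. *Sppl2b* held 30 and 37 reads in the scrambled libraries against 25 and 25 after knockdown. The part of this overlap in the low count of *Lsm7* was not tested.

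*U2af1*, the small subunit of the factor that reads the AG at the end of an intron, shares 99.3% of 890 aligned bases with *Gm10232*. The gene itself had 46 and 36 reads in the scrambled libraries against 34 and 58 after knockdown, and its copies had 123 and 114 in the scrambled libraries against 108 and 111 after knockdown, so that 72.4% of the sum lay on copies. The log2 fold change of *U2af1* was 0.37 ± 0.31 (SE) from its own reads and 0.16 ± 0.19 (SE) from the sum. The share on copies was smaller for *Sf3b4* (16.3%), *Snrpc* (15.8%) and *Snrpe* (11.2%). Full-length transcripts of all 37 members, mapped without sequencing errors, were placed on their own gene with high confidence, but nanopore reads carry errors and how they were shared out between a gene and its copy was not tested. The bar plot of reads on genes and copies shows these 5 members by library.

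**Figure D1:**
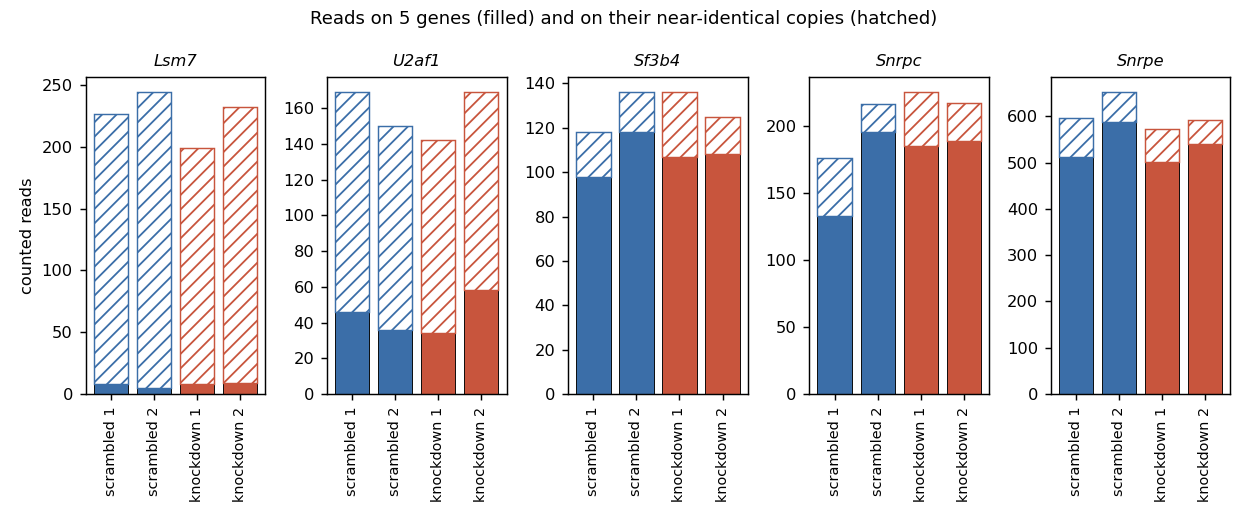
Counted reads (vertical axis, a scale of its own in each panel) on *Lsm7*, *U2af1*, *Sf3b4*, *Snrpc* and *Snrpe* (filled) and on their near-identical copies (hatched, stacked on top) in scrambled replicates 1 and 2 (blue) and knockdown replicates 1 and 2 (red). The copies hold 96.7% of the reads of the *Lsm7* pair and 72.4% of the *U2af1* pair, and between 11.2% and 16.3% for the other members shown.

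Of the 37 members, 34 passed the filter and were tested. The others were *Lsm7*, *Snrpf* and *Snrpn*. *Snrpf*, which codes for the Sm protein F and is needed for every Sm ring, was listed at 0 reads in each of the 4 libraries. All of the last 800 bases of its canonical transcript, and 82.0% of its exons as a whole, overlap exons of genes on the opposite strand, *Ccdc38* and *4933408J17Rik*, which were also at 0. Counting set aside up to 16.5% of the reads of a library as ambiguous between genes, and the strand setting of the counting is not given in the sources used here. The part of this overlap in the count of 0 was not tested. *Snrpn*, a neuronal relative of *Snrpb* within an imprinted locus, had 1 read in scrambled replicate 1 and 0 in the other libraries, where a count of 0 allows up to between 1.79 and 2.44 CPM, counts scaled to a common total (at 3 counts, counting error only). Genes on the same strand overlap *Snrpn*, *Gm38393* and *Snurf* among them, and were also listed at 0. Together they cover 59.8% of its last 800 bases.

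The members held between 8212 and 10386 reads per library, counted with no scaling, which is 0.626% and 0.619% of the counted reads in scrambled and 0.598% and 0.668% in knockdown. The scrambled values lay between the knockdown values. In CPM (reads as a share of all counted reads of the library), the highest mean levels over the 4 libraries were those of *Snrpb* (745.5), *Snrpd3* (490.4) and *Snrpd1* (488.6). The lowest among members tested were *Snrnp70* (21.7), *Prpf4* (26.5) and *U2af1* (31.6). A read comes from a single RNA molecule, so reads need not grow with transcript length, and division by length favours short transcripts. Divided by the kilobases of the canonical transcript, the highest mean levels were those of *Snrpd1*, with 652 CPM per kilobase, *Snrpb* with 642 and *Snrpe* with 528, all of the Sm ring. The ranges of *Snrpd1* (504 to 741) and *Snrpb* (583 to 705) over the libraries overlapped, as did those of *Snrpb* and *Snrpe* (486 to 608). *Lsm2* of the U6 ring followed with 271 and *Snrpd2* with 232, with ranges that also overlapped. The lowest levels per kilobase among members tested were those of *Prpf4* (5.04), *Snrnp70* (8.08) and *Snrnp200* (8.30). *Snrnp200* had 90.2 CPM before division by its 10.9 kilobases. In CPM without division by length, the order kept 8 of its 10 highest members. The canonical transcript of *Lsm4* is 5.52 kilobases in the annotation used, for a coding length of 414 bases, so its level per kilobase depends strongly on that choice.

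**Figure D2:**
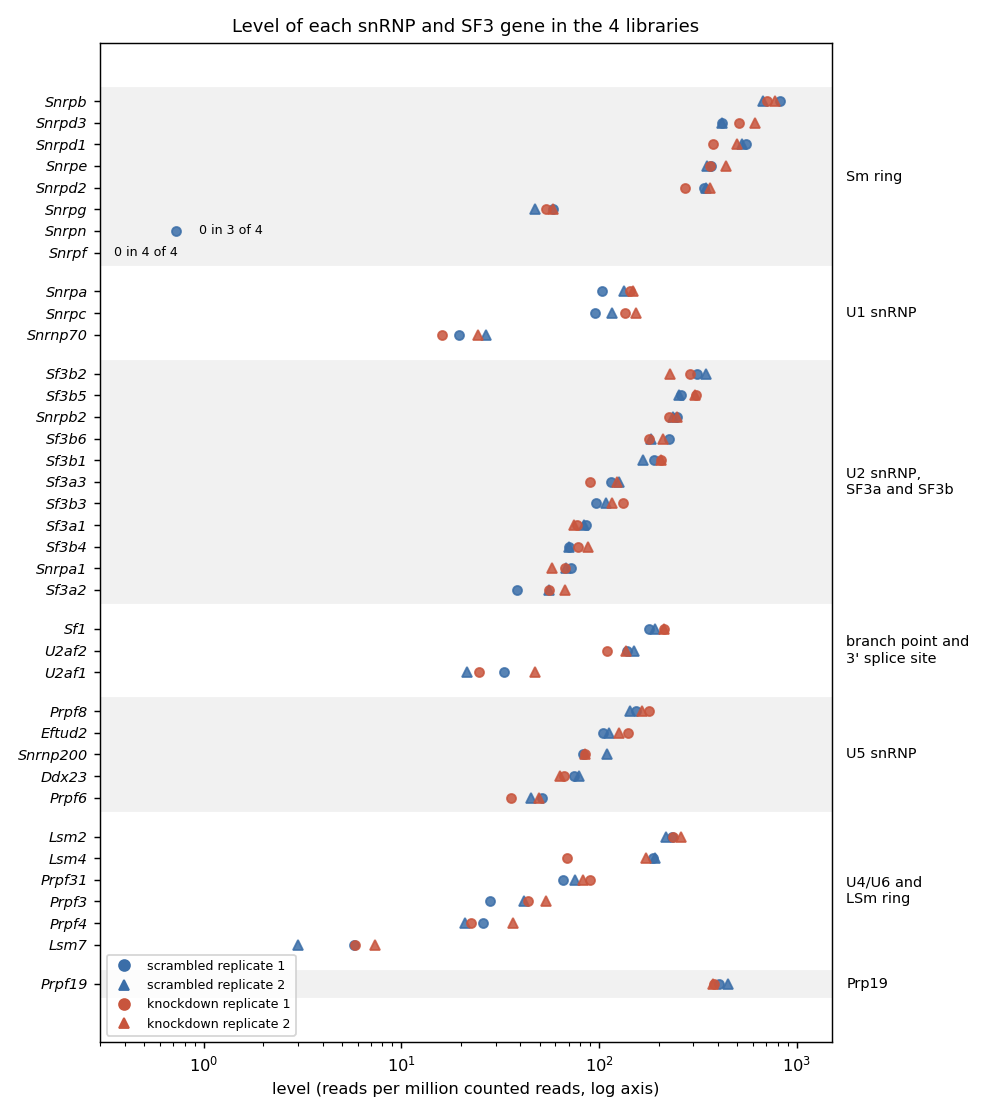
Level of each of the 37 members in CPM (horizontal log axis, not divided by transcript length) in scrambled (blue) and knockdown (red) replicate 1 (circles) and replicate 2 (triangles), grouped by complex. The points of a member lie close together beside the spread between members, the low circle of *Lsm4* is knockdown replicate 1, and *Snrpf* has no point because its count is 0 in 4 of 4 libraries.

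*Hnrnpl* itself had 358 and 656 reads in the scrambled libraries against 242 and 258 after knockdown, a log2 fold change of -0.78 ± 0.18 (SE, edgeR adjusted p = 0.0112), without overlap between the groups. Without scrambled replicate 2 it was -0.48 and without knockdown replicate 1 -0.63, with adjusted p of 0.194 and 0.150 from edgeR, and the parametric DESeq2 fits gave 0.0567 (Wald) and 0.0670 (likelihood ratio). None of the 3 shRNA target sequences matches a transcript of a member in full. The longest exact run shared with any of 802 member transcripts was 11 bases of 21, in *Snrpd3* and in *Prpf8*. Among markers of cell type, the summed level of 8 myoblast markers was between 13534 and 16047 CPM in every library. *Vim* alone held between 13089 and 15258 CPM, so the sum says little about the other myoblast markers. *Myf5* was present with 157 and 190 reads in the scrambled libraries against 158 and 113 after knockdown, whereas *Pax7* was at 0 and *Myod1* and *Msc* had 1 read each in all. The sum hides 3 myoblast markers that fell in knockdown in the same edgeR test. *Cdh15* (M-cadherin) went from 113 and 152 reads to 25 and 14 (adjusted p = 2.0e-06), *Chrna1* from 255 and 409 to 120 and 78 (adjusted p = 3.4e-05) and *Des* (desmin) from 373 and 571 to 309 and 242 (adjusted p = 0.031). Their part in the values of the members was not tested. Of 10 genes of differentiating muscle, 6 were at 0 in all libraries and the sum was at most 21.6 CPM, and markers of fibroblasts, endothelium, macrophages and adipocytes summed to at most 7.16 each.

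No member passed the test between knockdown and scrambled. With edgeR's quasi-likelihood test, 0 of the 34 members tested had an adjusted p under 0.05, where 5.95% of all 8670 genes tested did (2.51% higher and 3.44% lower). The smallest adjusted p of a member was 0.115. At an unadjusted p under 0.05 there were 5 members (14.7%), against 21.8% of all genes. Of these, *Snrpd3* and *Snrpc* lay higher in knockdown (5.88% of members, 10.3% of genes) and *Sf3b2*, *Lsm4* and *Snrpd1* lower (8.82% of members, 11.5% of genes). DESeq2 (Wald test, local fit) also gave 0 members at an adjusted p under 0.05 and 3 at an unadjusted p under 0.05 (8.33% of 36 members, beside 6.4% of 16728 genes). These 16728 genes had no filter on low counts, unlike the 8670 of edgeR, so the background shares of the tools are not alike. A share for DESeq2 over genes at the level of the members was not computed. Of the 8507 genes to which DESeq2 gave an adjusted p, 2.79% were under 0.05. For 20 members the normalised counts of knockdown and scrambled were fully apart, 12 higher and 8 lower, which is 58.8% beside 52.4% of all genes.

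The sizes were small. The log2 fold change was above 0 for 18 members (52.9%, beside 49.9% of all genes) and below 0 for 16. The median was 0.09, beside -0.0006 for all genes. The number above 0 was 26 of 35 without knockdown replicate 1 and 13 of 34 without knockdown replicate 2, where the medians of all genes were -0.014 and -0.008. The median absolute log2 fold change was 0.22 for members and 0.27 for all genes, or 0.24 for genes with at least the level of the lowest member tested. *Lsm4* alone exceeded an absolute log2 fold change of 0.5, which 22.5% of all genes did. This share, and those of the intervals below, take in genes with fewer reads than any member tested and were not matched for level. The standard errors lay between 0.13 and 0.31, with a median of 0.16. The 95% interval of the log2 fold change lay within -1 and 1 for 32 members (94.1%) and for 68.0% of all genes, so changes of a whole log2 unit fell outside the interval for those 32. It lay within -0.5 and 0.5 for 11 members (14.8% of all genes), and for the other members the interval takes in a change of that size. Outside the wider range were *Lsm4*, whose interval reached -1.22, and *U2af1*, whose interval reached 1.03.

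**Figure D3:**
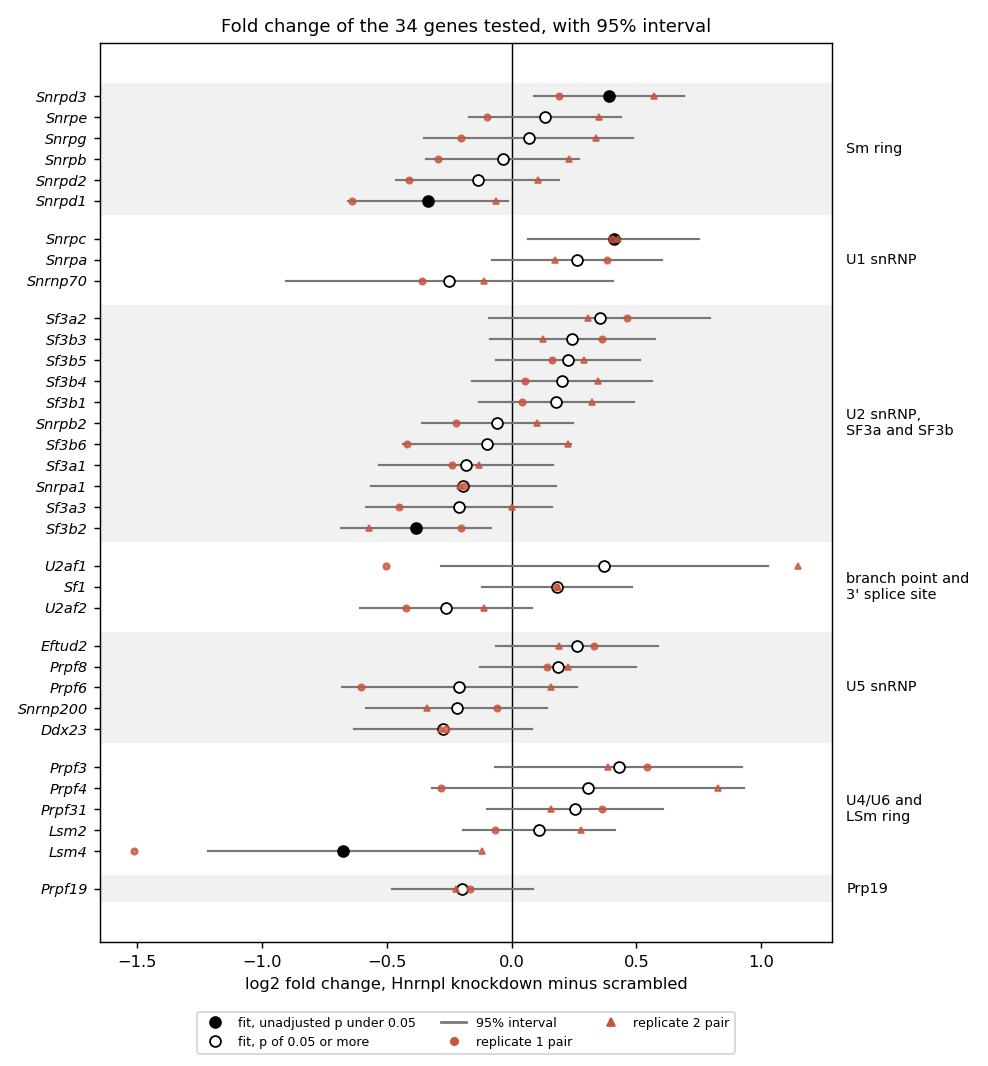
Log2 fold change, knockdown minus scrambled, of the 34 members tested (large points, filled at an unadjusted p under 0.05) with 95% intervals, and the log2 ratio within each replicate pair of libraries (small red circles for replicate 1 and triangles for replicate 2). The fitted values lie between -0.67 (*Lsm4*) and 0.43 (*Prpf3*), and 5 points are filled.

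The Sm proteins form the ring that is common to U1, U2, U4 and U5. The 3 members with the most reads belong to this ring, and the fold changes of the ring had both signs. *Snrpd3* (SmD3, chromosome 10, 75353380 to 75373229) had 582 and 705 reads in the scrambled libraries against 699 and 754 after knockdown. Scaled for library size, these are 601 ± 11.5 normalised reads against 789 ± 131 (SD, n = 2 each). Both knockdown libraries lay above both scrambled ones, with a log2 fold change of 0.39 ± 0.14 (SE, edgeR adjusted p = 0.115). Without knockdown replicate 2 it was 0.21, and 0.55 without knockdown replicate 1. *Snrpd1* (SmD1, chromosome 18, 10617748 to 10642102) went the other way. Its counts were 770 and 883 in the scrambled libraries against 519 and 609 after knockdown, or 775 ± 44.8 and 614 ± 138 normalised reads (SD, n = 2). The groups did not overlap and the log2 fold change was -0.34 ± 0.15 (SE, edgeR adjusted p = 0.207). Without knockdown replicate 2 it reached -0.58 with an adjusted p of 0.0384 from edgeR, and without knockdown replicate 1 it was -0.12 with 0.741, the adjusted p over the 18 other settings lying between 0.0384 and 0.908. *Snrpb* (SmB), with 1135 and 1135 reads in the scrambled libraries against 972 and 959 after knockdown, had a log2 fold change of -0.04 ± 0.15 (SE), and its scrambled mean of 1072 ± 165 (SD, n = 2) normalised reads lay within the spread of the knockdown mean of 1045 ± 108 (SD, n = 2). The other members of the ring, *Snrpd2*, *Snrpe* and *Snrpg*, had log2 fold changes of -0.14, 0.13 and 0.07 and overlapping groups. The summed ring was 3529 ± 269 normalised reads in scrambled and 3540 ± 584 in knockdown (SD, n = 2), a difference of 0.297%.

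Of the proteins specific to U1 snRNP, the A and C proteins had more reads in both knockdown libraries than in the scrambled ones after scaling. *Snrpc* (which helps U1 hold the 5′ splice site, chromosome 17, 28057124 to 28070946) had 133 and 195 reads in the scrambled libraries against 185 and 189 after knockdown. These are 152 ± 17.5 and 203 ± 25.9 normalised reads (SD, n = 2), and the log2 fold change was 0.41 ± 0.16 (SE, edgeR adjusted p = 0.146). With the reads of its copies added, the log2 fold change was 0.38. *Snrpa*, with 143 and 224 reads in the scrambled libraries against 196 and 182 after knockdown, had a log2 fold change of 0.26 ± 0.16 (SE, edgeR adjusted p = 0.364). When single libraries were left out this lay between 0.11 (without scrambled replicate 1) and 0.44 (without scrambled replicate 2). *Snrnp70* (U1-70K) had few reads, 27 and 45 in the scrambled libraries against 22 and 30 after knockdown, a log2 fold change of -0.25 and the largest standard error of the list, 0.31. When single libraries were left out it lay between -0.61 (without knockdown replicate 2) and 0.07 (without knockdown replicate 1). Summed over these 3 genes, U1 had 354 ± 51.7 normalised reads in scrambled and 435 ± 47.5 in knockdown (SD, n = 2), a difference of 23.0%. By library these sums were 317 and 390 against 402 and 469, scrambled replicate 1 being the lowest, and no test was run on the sums of complexes.

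U2 snRNP, SF3a and SF3b hold 11 members, of which 5 lay above 0 and 6 below. *Sf3b2*, a subunit of the SF3b complex that clamps the branch point (chromosome 19, 5323941 to 5345514), had the most reads of them, 436 and 583 in the scrambled libraries against 398 and 282 after knockdown. This is 473 ± 24.0 and 363 ± 47.3 normalised reads (SD, n = 2), without overlap, and a log2 fold change of -0.38 ± 0.14 (SE, edgeR adjusted p = 0.123). *Sf3b1*, whose product contacts the branch site RNA, had 262 and 280 reads in the scrambled libraries against 283 and 252 after knockdown and a log2 fold change of 0.18 ± 0.15 (SE, edgeR adjusted p = 0.521), which was 0.06 without scrambled replicate 2 and 0.29 without scrambled replicate 1. *Sf3b1*, *Sf3b3*, *Sf3b4* and *Sf3b5* lay higher without overlap, the last 3 with log2 fold changes of 0.24, 0.20 and 0.23. *Sf3b4* was at 0.08 without knockdown replicate 2 and at 0.32 without knockdown replicate 1. *Sf3b6*, which touches the branch point adenosine, was at -0.10 with overlap. Within SF3a, *Sf3a2* was at 0.35, *Sf3a1* at -0.18 and *Sf3a3* at -0.21, none at an unadjusted p under 0.05. *Sf3a2* was at 0.14 without scrambled replicate 1, at 0.18 without knockdown replicate 2 and at 0.63 without scrambled replicate 2. The U2 proteins *Snrpa1* and *Snrpb2*, which bind each other on U2 RNA, were at -0.19 and -0.06. *Sf3a1* and *Snrpa1*, like *Sf3b2*, lay lower in knockdown without overlap, so that 4 members of this group were fully higher and 3 fully lower. Among all genes tested, 52.4% had groups that did not overlap. The sum of the 11 genes was 2444 ± 67.8 normalised reads in scrambled and 2409 ± 99.4 in knockdown (SD, n = 2), and these differed by less than the spread between replicates.

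The factors that first bind the end of the intron had no member at an unadjusted p under 0.05 in this fit. Among the edgeR and DESeq2 fits to all 4 libraries, *Sf1* alone of them crossed it, once chromosome medians were removed. *Sf1*, the branch point binding protein, had 247 and 321 reads in the scrambled libraries against 294 and 263 after knockdown, with a log2 fold change of 0.18 ± 0.14 (SE). *U2af2*, which binds the pyrimidine tract, had 193 and 252 in the scrambled libraries against 151 and 168 after knockdown and a log2 fold change of -0.26 ± 0.16 (SE). It was -0.46 without knockdown replicate 2 and -0.08 without knockdown replicate 1. Normalised reads of *Sf1* were higher and those of *U2af2* lower in both knockdown libraries. The partner subunit *U2af1* was at 0.37 with overlapping groups, on the reads left beside its copies. It was at 0.81 without knockdown replicate 1, at 0.72 without scrambled replicate 1 and at -0.19 without knockdown replicate 2.

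U5 snRNP holds the large proteins around the catalytic centre. *Prpf8*, the scaffold of that centre, had 212 and 241 reads in the scrambled libraries against 246 and 203 after knockdown, or 212 ± 13.6 and 241 ± 5.54 normalised reads (SD, n = 2), with a log2 fold change of 0.19 ± 0.15 (SE, edgeR adjusted p = 0.503). Without scrambled replicate 2 it was 0.11. *Eftud2*, a GTPase that binds PRPF8, was at 0.26. The helicase *Snrnp200*, which unwinds U4 from U6, was at -0.22 (-0.03 without scrambled replicate 2 and -0.38 without scrambled replicate 1), the helicase *Ddx23* at -0.28 and the tri-snRNP bridge *Prpf6* at -0.21. The groups did not overlap for *Prpf8* and *Eftud2* (higher) and *Ddx23* (lower). The sum over U5 was 684 ± 9.38 normalised reads in scrambled and 697 ± 7.76 in knockdown (SD, n = 2).

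The U4/U6 proteins and the LSm ring held the highest and the lowest fold change of all members. *Lsm4* (chromosome 8, 71125849 to 71135952), a subunit of the ring that binds the tail of U6 RNA, had 259 and 321 reads in the scrambled libraries against 95 and 213 after knockdown. This is 271 ± 0.797 and 172 ± 109 normalised reads (SD, n = 2), so the knockdown libraries differed from each other by more than the groups did. The log2 fold change was -0.67 ± 0.26 (SE, edgeR adjusted p = 0.130). With the replicate number as a block it was -0.76 with an adjusted p of 0.0451 from edgeR, the only member past the threshold in that fit. Without knockdown replicate 1 the log2 fold change was -0.12 and the adjusted p 0.778, and without knockdown replicate 2 it was -1.52 with an adjusted p of 9.2e-05. Over the 18 other settings the adjusted p lay between 9.2e-05 and 0.9997. The value of *Lsm4* rests on knockdown replicate 1. *Lsm2* of the same ring, with 323 and 366 reads in the scrambled libraries against 324 and 320 after knockdown, had a log2 fold change of 0.11 ± 0.14 (SE), and its normalised counts overlapped between groups.

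*Prpf3*, which holds U4 and U6 together, had the highest log2 fold change of a member, 0.43 ± 0.24 (SE, edgeR adjusted p = 0.303), from 39 and 70 reads in the scrambled libraries against 60 and 66 after knockdown. Without scrambled replicate 1 it was 0.21 and without scrambled replicate 2 it was 0.73, and without knockdown replicate 2 it was 0.24. Its partner *Prpf4* was at 0.31 with overlapping groups and *Prpf31* at 0.25 without overlap. *Gm15927*, on the opposite strand and at 0 reads, covers 38.1% of the last 800 bases of *Prpf31*. *Prpf19*, the ubiquitin ligase that gives its name to the complex activating the spliceosome, had 561 and 751 reads in the scrambled libraries against 525 and 463 after knockdown. Its normalised reads were 610 ± 31.4 in scrambled and 532 ± 12.8 in knockdown (SD, n = 2), without overlap, and the log2 fold change was -0.20 ± 0.13 (SE, edgeR adjusted p = 0.419).

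Summed over all members, the normalised reads were 8915 ± 252 in scrambled and 8897 ± 991 in knockdown (SD, n = 2), a difference of -0.207%. The 2 knockdown libraries stood on opposite sides of the scrambled ones, at 8196 in replicate 1 and 9598 in replicate 2, against 9093 and 8737. The same split was seen within the batches. The median log2 ratio of knockdown to scrambled over the members tested was -0.18 in replicate 1 and 0.18 in replicate 2, whereas the medians of all genes were 0.01 and 0.00. In 23 of 34 members the ratio had the same sign in both pairs, and the share of all genes that did was not computed. *Snrpd3*, *Snrpc* and *Sf3b2* were among these, with 0.19 and 0.57, 0.40 and 0.43, and -0.20 and -0.57 in replicates 1 and 2. *Lsm4* and *Snrpd1* kept their sign but lost most of their size in replicate 2, from -1.51 to -0.12 and from -0.64 to -0.06. The sign turned with the widest gap in *U2af1*, with -0.50 in replicate 1 and 1.15 in replicate 2, and in *Prpf4*, with -0.28 and 0.83. *Snrpb* and *Snrpd2* of the Sm ring also changed sign, from -0.30 to 0.23 and from -0.41 to 0.10. So did *Snrpe* and *Snrpg* of this ring, from -0.10 to 0.35 and from -0.20 to 0.34.

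Coding length moved with this split among all genes, by a smaller amount. In the 1135 genes with a coding length of up to 600 bases the median log2 ratio was -0.05 in replicate 1 and 0.09 in replicate 2, and in the 4664 genes over 1200 bases it was 0.07 and -0.03. The 10 short members had medians of -0.15 and 0.28, and the 19 long members -0.06 and 0.16, so the members of both lengths had the lower median in replicate 1. The part of length in the result was not tested further.

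**Figure D4:**
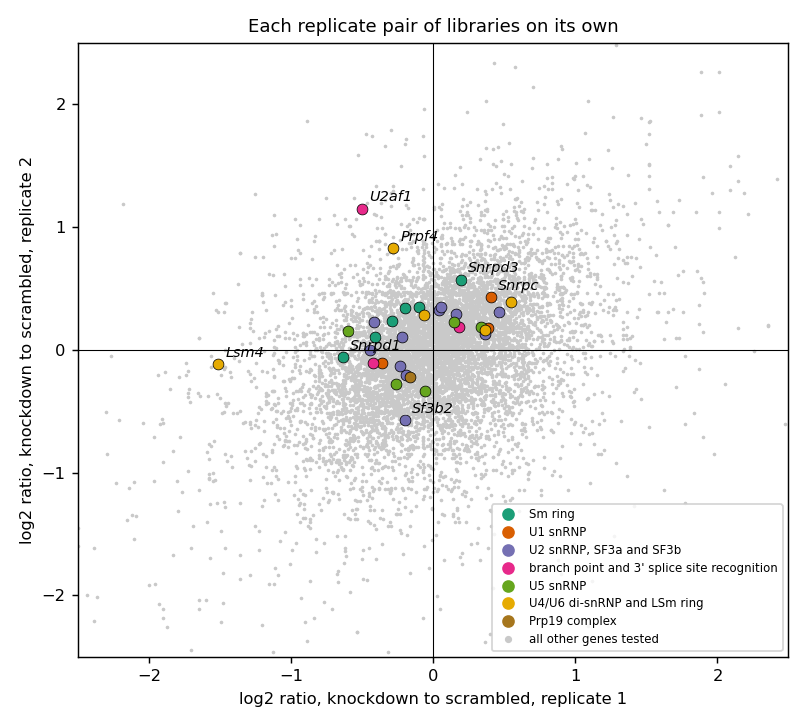
Log2 ratio of knockdown to scrambled in replicate 1 (horizontal axis) and replicate 2 (vertical axis) for the 34 members (coloured by complex) and the other genes tested (grey), of which 72 lie outside the plotted range. The members have a median of -0.18 on the horizontal and 0.18 on the vertical axis, *Lsm4* lies far to the left and *U2af1* in the upper left.

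The fold changes of genes in these libraries differ by chromosome, and the members lie on 14 chromosomes whose medians run from -0.28 to 0.28. For 27 of the 34 members (79.4%) the log2 fold change had the sign of the median of its chromosome, which 69.1% of all genes tested did. *Snrpd1* lay at -0.34 on chromosome 18, whose median was -0.28, *Sf3b2* at -0.38 on chromosome 19 (-0.23) and *Snrpd3* at 0.39 on chromosome 10 (0.24). When the chromosome medians were removed, these 3 were left with log2 fold changes of -0.06, -0.15 and 0.15, none at an unadjusted p under 0.05, and *Snrpc* was left with 0.22 after 0.41. *Lsm4* changed little, to -0.59, since the median of chromosome 8 was -0.08. *Sf1* went against its chromosome, 0.18 beside -0.23 for chromosome 19, and stood at 0.41 with the chromosome medians removed. *Prpf19* on the same chromosome turned from -0.20 to 0.03, and *Snrpb* from -0.04 to 0.02. *Snrpe*, *Snrpg*, *Sf3b1*, *Sf3b5* and *Lsm2* turned from above 0 to -0.06, -0.21, -0.013, -0.015 and -0.09. After this removal 3 members had an unadjusted p under 0.05 (8.82%, beside 14.7% of all genes). These were *Lsm4*, which also had one before, and *Sf1* and *Eftud2* (log2 fold change 0.37), which had not, and *Sf1* had the smallest p. No member had an adjusted p under 0.05, where 3.46% of all genes did, and the median over the members was -0.01.

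**Figure D5:**
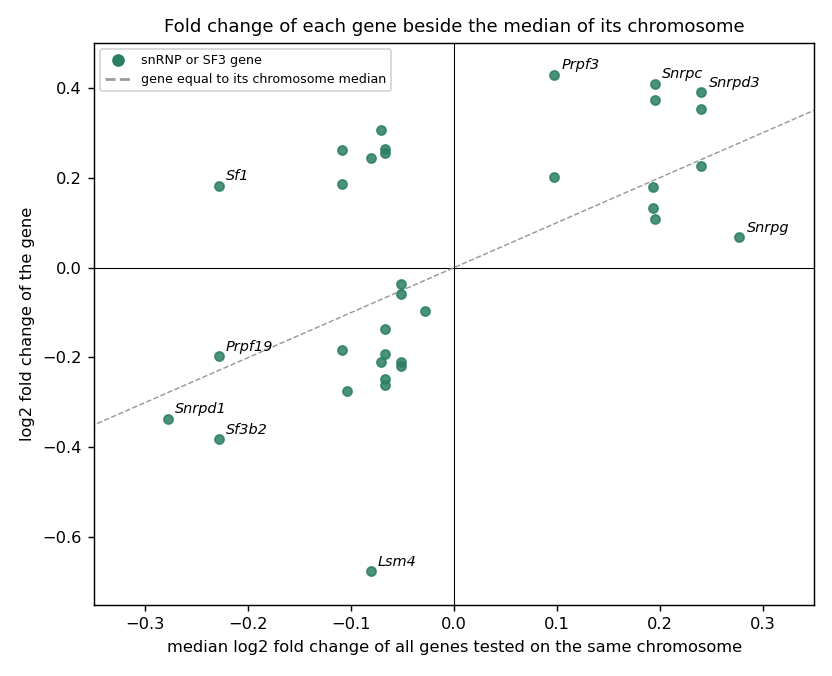
Log2 fold change of each of the 34 members (vertical axis) against the median over the genes tested on its chromosome (horizontal axis); on the dashed line both are equal. *Snrpd1* and *Sf3b2* sit at low chromosome medians (-0.28 and -0.23) and *Snrpd3* at a high one (0.24), while *Lsm4* lies far under the line.

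Of 87 other spliceosome and snRNP assembly genes in the files, 77 were tested, 36 lay above 0, and the median log2 fold change was -0.02. An adjusted p under 0.05 was reached by 3 of them (3.90%, beside 5.95% of all genes) and an unadjusted p under 0.05 by 17 (22.1%, beside 21.8%), 9 higher and 8 lower. *Usp39*, a tri-snRNP protein related to ubiquitin proteases, rose in knockdown, from 109 and 141 reads to 183 and 155, with a log2 fold change of 0.64 ± 0.16 (SE, edgeR adjusted p = 0.0217). *Sart1*, which tethers U4/U6 to U5, fell by 0.76 on the log2 scale, from 99 and 162 reads to 57 and 75 (adjusted p = 0.0391 from edgeR). *Prmt5*, the methyltransferase that modifies Sm proteins before ring assembly, fell by 0.60, from 117 and 166 reads to 87 and 74 (adjusted p = 0.0430 from edgeR). No DESeq2 configuration called these 3 genes, although the local Wald fit gave log2 fold changes of 0.64, -0.75 and -0.61 for *Usp39*, *Sart1* and *Prmt5*. None was called once the chromosome medians were removed, which left 0.36, -0.53 and -0.24. When single libraries were left out, the adjusted p of edgeR lay between 0.0591 and 0.102 for *Usp39*, between 0.00257 and 0.333 for *Sart1* (highest without knockdown replicate 1, and 0.242 without scrambled replicate 2) and between 0.0439 and 0.249 for *Prmt5* (highest without scrambled replicate 2, with 0.177 and 0.123 without knockdown replicates 1 and 2). In the same fits the log2 fold change of *Sart1* ran from -0.46 (without knockdown replicate 1) to -1.09 (without knockdown replicate 2), that of *Prmt5* from -0.51 to -0.69 and that of *Usp39* from 0.61 to 0.66. With the replicate block, *Prmt5* had an adjusted p of 0.0515 from edgeR. Next by p in their direction came *Isy1* (log2 fold change 1.01, 27 and 16 reads against 39 and 37) and *Smn1* (0.52) above 0 and *Txnl4a* (-0.74) below, with adjusted p between 0.0650 and 0.127 from edgeR. *Isy1* was at 1.59 without scrambled replicate 1 (adjusted p = 0.00583) and at 0.52 without scrambled replicate 2. *Smn1* was at 0.79 without knockdown replicate 1 and at 0.21 without knockdown replicate 2. *Txnl4a* was at -0.94 without scrambled replicate 2 (adjusted p = 0.0200) and at -0.54 without scrambled replicate 1 or knockdown replicate 1. *Smn1* codes for the protein that loads Sm rings onto snRNA. By group, adjusted p under 0.05 was met by 2 of 16 tri-snRNP and LSm genes, 1 of 15 snRNP assembly genes, 0 of 20 U1 and U2 associated genes, 0 of 21 Prp19 and catalytic step genes and 0 of 5 minor spliceosome genes. In the groups without a call, an unadjusted p under 0.05 was met by 3, 4 and 0 genes in that order, and DESeq2 called none.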

How the data were processed

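Direct RNA libraries of 2 scrambled and 2 *Hnrnpl* knockdown C2C12 cultures were used, with groups taken from the sample labels. According to the submitters' processing notes and the methods, the authors basecalled with guppy, mapped to GRCm39 with minimap2 2.17 and counted reads per gene with HTSeq 0.9.1. The deposited values are whole counts without normalization. The annotation release and strand setting are not given in the sources used here. Symbols and positions came from GENCODE vM39, which held 56017 of the 56748 gene IDs.

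Between 1229424 and 1676911 reads per library were counted, and a further 22.7% to 23.8% of reads were set aside for low mapping quality. CPM values divide by the counted reads. Counts were tested in edgeR 4.0.16 (R 4.3.3) with TMM factors, filterByExpr and the quasi-likelihood test, adjusted by Benjamini-Hochberg over 8670 genes. For normalised reads, counts were divided by TMM-adjusted library sizes and multiplied by the average of the library totals, and ratios within a pair used a pseudocount of 0.5. DESeq2 1.42.0 was run as an alternative, in the authors' 4 configurations. Fits were tested on simulated data. Canonical transcripts were mapped with minimap2 2.31 to find copies, and annotated exons were compared to find overlapping genes.

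The labels give the replicate number as the batch, which pairs the libraries. Across 6166 genes, the departures of scrambled and knockdown replicate 1 from the averages of their groups correlated at 0.001. The 37 members, the list of 87 other genes and the markers were chosen with earlier results of these data known. Reads are given for members with an unadjusted p under 0.05, the 3 highest and 3 lowest fold changes, the member with most reads in each complex and members not tested. Of the other list, genes with an adjusted p under 0.05 and the 3 smallest p-values in each direction are named. Other named members are given to complete their complex. Transcript isoforms and splicing were not analysed here.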

Additional observations from a re-analysis of the deposited data

How the results depend on the processing

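The tests were repeated under 18 other settings, of which adding the reads of copies to the member was chosen after seeing the data. An adjusted p under 0.05 was reached by 1 member (*Lsm4*) with no filter beyond at least 1 count (4.42% of all genes), by 1 (*Lsm4*) with the replicate block (5.81%), by between 0 and 2 when single libraries were left out (*Lsm4*, and *Snrpd1* at -0.58 without knockdown replicate 2; between 2.2% and 4.96%), and by 0 in the other settings. At an adjusted p under 0.05 the block changed no other call of a member, and it gave 2 of the other spliceosome genes (*Prmt5* was lost, adjusted p = 0.0515 from edgeR). Members at an unadjusted p under 0.05 numbered 3 with the local fit of DESeq2 (*Lsm4* and *Snrpc* were lost; 6.4% of 16728 genes with no filter on low counts in the Wald and 6.47% in the likelihood ratio test) and 2 with the parametric fit (*Snrpd1* was lost too; 4.47% and 4.49% of the same genes). They numbered 3 with the chromosome medians removed (*Lsm4* with *Sf1* and *Eftud2*, and 4 of the 5 were lost; 14.7%), 4 with the replicate block (*Snrpd1* was lost; 20.6%), 4 with the robust fit (*Lsm4* was lost; 21.8%), and 4 to 6 without single libraries (15.4% to 18.6%), partly other members. The median log2 fold change of members lay between -0.12 and 0.17 without single libraries. Calls among the other spliceosome genes numbered 1 with upper quartile factors, 5 with no filter, 0 in the 4 DESeq2 configurations, 0 with the chromosome medians removed and 0 to 3 without single libraries. Of 216 values of the 12 tested members for which reads are given by rule (*Lsm2*, *Lsm4*, *Prpf3*, *Prpf8*, *Prpf19*, *Sf1*, *Sf3b2*, *Snrpa*, *Snrpb*, *Snrpc*, *Snrpd1* and *Snrpd3*), 204 kept their direction and side of the threshold. The sign turned for *Lsm2* (-0.086), *Prpf19* (0.032) and *Snrpb* (0.015) with the chromosome medians removed, and among the other members for *Snrpe*, *Snrpg*, *Sf3b1* and *Sf3b5*. Without single libraries *Lsm2* ranged from -0.001 to 0.21 and *Snrpb* from -0.19 to 0.13. Other members whose sign turned without single libraries were *Snrnp70* (-0.61 to 0.07), *U2af1* (-0.19 to 0.81), *Prpf4* (-0.11 to 0.66), *Sf3a3* (-0.50 to 0.04), *Prpf6* (-0.50 to 0.05), *Snrpd2* (-0.40 to 0.10), *Sf3b6* (-0.27 to 0.08), *Snrpb2* (-0.17 to 0.05), *Snrpg* (-0.12 to 0.24) and *Snrpe* (-0.04 to 0.29). For members whose sign did not turn without single libraries, moves of over 1.5 times in those fits are given with the member. The exception is *Snrpa1* (-0.13 without knockdown replicate 2). Of the 34 members, 19 kept their sign in every setting. The cause of these shifts was not tested. A fit without 1 library rests on a lone library in 1 group, which is assumed to vary like the other group.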
